A study of Mus musculus with 9 samples.

Results

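Metallothioneins and the zinc transporters beside them set how much free zinc a hepatocyte holds. Of this group, 7 genes were followed through 9 mouse liver RNA-seq libraries: the metallothioneins Mt1 and Mt2, the zinc exporter Slc30a1 (ZnT1), Slc30a10 (ZnT10, a manganese exporter of a zinc exporter family) and the importers Slc39a4 (ZIP4), Slc39a5 (ZIP5) and Slc39a14 (ZIP14). Members were picked by name, as the rows of the deposited gene table whose gene name was one of these symbols, which gave 8 of the 52151 rows. The row of 6 members held a known transcript of the gene, 1 extra Mt1 row held an assembled transcript only, and the row named Slc39a5 was not a measurement of that gene, as described below.

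The samples were livers of mice aged 8 weeks by their labels, fed for 5 weeks, with 3 libraries in each of 3 groups. Pair-fed (PF) mice received an isocaloric control liquid diet, and alcohol-fed (AF) mice received the Lieber-DeCarli diet, a liquid diet that carries ethanol. The third group (AF with MNA) received the Lieber-DeCarli diet and, daily, an intraperitoneal injection of MNA at 50 mg/kg. The labels do not spell out MNA and name no vehicle injection for PF or AF. The strain was labelled C57BL/6 for all PF and AF samples and C57BL/7, C57BL/8 and C57BL/9 for replicates 1, 2 and 3 of AF with MNA. The labels do not say that replicates were separate animals, so p-values measure the spread between these samples. Values are FPKM (fragments counted per kilobase of transcript and corrected for library size), which allows levels of different genes to be compared per length.

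Metallothioneins are short, cysteine-rich proteins that bind zinc and copper, and liver makes more of them in response to zinc, glucocorticoids, acute phase signals and oxidants. Zinc acts through the transcription factor MTF-1, which binds metal response elements in the promoters of Mt1, Mt2 and Slc30a1. ZIP proteins carry zinc into the cytosol, while ZnT proteins carry it out of the cytosol. ZIP14 is the importer known for taking zinc into liver during the acute phase and also carries manganese and iron, and ZIP4 is best known from the gut, where it absorbs dietary zinc.

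Mt2 and Mt1 lie side by side on the plus strand of chromosome 8 (GRCm38), at chr8:94172664-94173568 and chr8:94179082-94180327, with 5513 bp between them. Slc30a1 lies at chr1:191906767-191913247 and Slc30a10 at chr1:185454848-185468762, both on the plus strand. Slc39a4 lies at chr15:76612383-76617384, Slc39a14 at chr14:70303469-70351425 and Slc39a5 at chr10:128395931-128401229, all on the minus strand. RefSeq promoter windows (GRCm38.p6, the 250 bases before the annotated start) were found for 5 of the 7 members. The windows of the metallothioneins, which moved together, and of Slc30a1, the other textbook MTF-1 target, are shown 5′ to 3′ on the plus strand. Capitals mark the core of the metal response element, searched as TGCACNC or TGCGCNC on either strand.
Mt2, chr8:94172368-94172617: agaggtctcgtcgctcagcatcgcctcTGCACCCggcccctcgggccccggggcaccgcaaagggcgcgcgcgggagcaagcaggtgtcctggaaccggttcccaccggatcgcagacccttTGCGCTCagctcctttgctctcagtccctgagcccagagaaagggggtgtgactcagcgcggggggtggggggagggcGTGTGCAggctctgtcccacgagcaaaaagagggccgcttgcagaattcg
Mt1, chr8:94178839-94179088: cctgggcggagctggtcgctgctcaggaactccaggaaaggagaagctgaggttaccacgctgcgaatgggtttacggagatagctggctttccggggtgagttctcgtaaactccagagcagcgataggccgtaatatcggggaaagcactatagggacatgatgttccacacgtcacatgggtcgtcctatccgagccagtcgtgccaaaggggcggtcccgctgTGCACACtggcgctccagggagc
Slc30a1, chr1:191906531-191906780: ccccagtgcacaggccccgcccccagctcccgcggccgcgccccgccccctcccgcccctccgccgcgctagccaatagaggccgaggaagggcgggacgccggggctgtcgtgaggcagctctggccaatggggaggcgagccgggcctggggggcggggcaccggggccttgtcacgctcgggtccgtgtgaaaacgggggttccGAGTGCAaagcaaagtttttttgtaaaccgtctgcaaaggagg

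The Mt2 window held 3 cores, and the Mt1 and Slc30a1 windows held 1 each. Of 32851 RefSeq windows of the same length, 21.4% held at least 1 core and 1.26% held at least 3. The Slc30a10 window also held 3 cores, 2 of them on overlapping letters, and the windows at the annotated starts of Slc39a5 held 1 and 0. The Mt2 window held a core of the antioxidant response element as well (TGACNNNGC on either strand, in 10.16% of windows), 79 to 71 bases before the start. The Slc30a1 window held 1 such core too, and 1 of the Slc39a5 windows held 2. The Mt1 window held a glucocorticoid response element core (ACANNNTGT, in 5.84% of windows), and none of the members' windows held the E-box CACGTG, which 6.02% of windows did.

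Both metallothionein windows end at the RefSeq start, and more cores followed in the first exon of the longest GENCODE transcript, before the start codon. There, Mt1 had 4 further cores in 222 bases and Mt2 had 3 in 184 bases. For Mt2, 230 bases lay between the window and the start codon, and those before this exon were not searched. Only these exons were searched, and no share over other genes was computed for them, so these counts have no background. The closely spaced ones, in capitals as above, are shown because the windows alone would understate Mt1.
Mt1, chr8:94179091-94179115: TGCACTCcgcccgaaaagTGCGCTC
Mt1, chr8:94179173-94179193: GGGTGCAaacccttTGCGCCC
Mt2, chr8:94172676-94172701: GTGTGCAggcggcgggggcGCGTGCA

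Mt1 was far more abundant in alcohol-fed than in pair-fed liver. Its level was 27.8, 7.30 and 6.98 FPKM in PF replicates 1, 2 and 3, and 198.5, 511.9 and 151.0 FPKM in the 3 AF libraries. In AF with MNA it was 104.4, 92.0 and 77.3 FPKM. The groups did not overlap: every AF library was above every library of AF with MNA, and every one of these was above every PF library.

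Mt1 was upregulated in AF by a log2 ratio of group means of 4.36, or 20.5-fold, from 14.0 ± 11.9 to 287 ± 196 FPKM (SD, n = 3 each). On the log2(FPKM + 1) scale, which understates changes of low values, the difference was 4.33 with a standard error of 0.641 (unadjusted p = 0.000353 and adjusted p = 0.0775 in limma). The PF value rested in part on replicate 1 and the AF value on replicate 2. Without PF replicate 1 the log2 ratio was 5.33, and without AF replicate 2 it was 3.64.

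Mt2 followed the same order. It stood at 24.4, 4.36 and 3.08 FPKM in PF, at 163.2, 492.6 and 89.6 FPKM in AF and at 68.1, 40.5 and 63.4 FPKM in AF with MNA. The 3 groups again did not overlap, PF replicate 1 was again the highest PF library, and AF replicate 2 the highest AF library. The log2 ratio of AF to PF was 4.55, or 23.4-fold (group means 10.6 ± 11.9 and 248 ± 215 FPKM, SD, n = 3 each, limma adjusted p = 0.120). Leaving out PF replicate 1 gave 6.06 and leaving out AF replicate 2 gave 3.58.

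Among 26350 rows with a known transcript, Mt1 ranked between 706 and 2630 by FPKM in the PF libraries, between 66 and 169 in AF and between 235 and 289 in AF with MNA. Mt2 ranked between 805 and 5520, between 71 and 249 and between 328 and 528 in the same groups. The ratio of Mt1 to Mt2 stayed within a narrow range while their sum went from 10.1 to 1004 FPKM. It was lowest in AF replicate 2, at 1.04, and highest in replicate 2 of AF with MNA, at 2.27, and its group ranges overlapped.

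**Figure D1:**
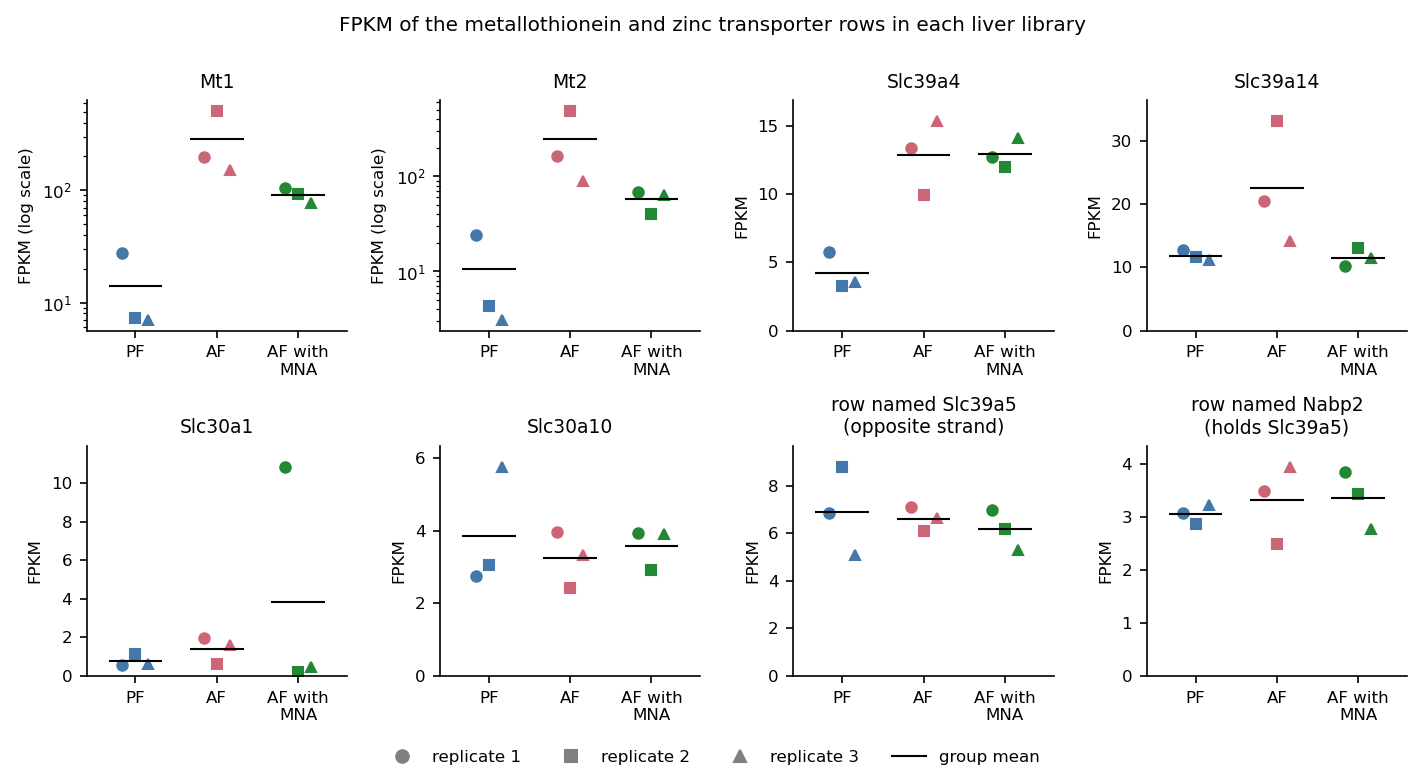
FPKM of each member's row in the 9 libraries, with PF in blue, AF in red and AF with MNA in green, marker shapes for the replicate numbers and a line at each group mean (n = 3). Mt1 and Mt2 are on log axes, the other panels start at 0. Mt1 and Mt2 are separate in all 3 groups, Slc39a4 is higher in both alcohol-fed groups than in PF, and 1 library of AF with MNA sets the Slc30a1 mean.

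With the methods' threshold (unadjusted p under 0.05 and a log2 ratio of group means beyond 1 or -1), 3 of the 6 tested members passed between AF and PF, all upregulated: Mt1, Mt2 and Slc39a4. Over all 12273 genes tested, 4.29% passed it. At an adjusted p under 0.05 in limma no member passed, that is 0 of 6, against 0.326% of all genes. At an unadjusted p under 0.05 there were 4 members, and 11.7% of all genes. A fit without moderation and with Ballgown's library-size covariate gave 0 members after adjustment. It also gave 0 of all 12273 genes, so that 0 says nothing of the members. The groups did not overlap for 4 of the 6 members, compared with 18.3% of all genes. The median log2 ratio was 1.28 for the tested members and -0.03 for all genes. With 3 libraries against 3, an exact permutation test of 1 gene cannot go below a two-sided p of 0.1. These are whole-liver libraries, in which fewer cells of a type and less RNA per cell cannot be told apart.

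Slc39a4, the gut-type zinc importer, was the only transporter of the group to pass the threshold. It was at 5.78, 3.24 and 3.52 FPKM in PF, at 13.4, 9.91 and 15.3 FPKM in AF and at 12.7, 12.0 and 14.1 FPKM in AF with MNA. All 6 libraries of the alcohol-fed groups were above all 3 PF libraries, and AF and AF with MNA overlapped.

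Slc39a4 rose from 4.18 ± 1.39 to 12.9 ± 2.75 FPKM (SD, n = 3 each), a log2 ratio of 1.62 or 3.08-fold (limma adjusted p = 0.09996). Of the enterocyte markers, Vil1 was between 0.01 and 0.09 FPKM in every library and Fabp2, also made by liver, fell by 1.46 on the log2 scale in AF (limma adjusted p = 0.147). Lgals4, the most abundant of the enterocyte list, was between 21.8 and 34.8 FPKM over the 9 libraries. The summed level of the list, mostly Lgals4 and Fabp2, was 44.2 to 53.1 FPKM in PF, 29.0 to 35.1 FPKM in AF and 38.3 to 48.8 FPKM in AF with MNA. Of the pancreatic acinar markers, Cpa1 and Ctrb1 were at 0.28 FPKM or below in all libraries. The part of other tissues in the Slc39a4 value was not tested.

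Slc39a14, the acute phase zinc importer, was at 12.7, 11.6 and 11.2 FPKM in PF, at 20.5, 33.1 and 14.2 FPKM in AF and at 10.2, 13.0 and 11.4 FPKM in AF with MNA. All 3 AF libraries were above the other 6, with replicate 2 the highest, as for the metallothioneins. The log2 ratio of AF to PF was 0.93 (unadjusted p = 0.0287, limma adjusted p = 0.370), short of the threshold on size. It passed when libraries were scaled to the same median (1.01) and without AF replicate 3 (1.18). The ratio was 0.55 without AF replicate 2, and the unadjusted limma p rose to between 0.0521 and 0.0715 on leaving out any 1 PF library or AF replicate 1.

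The exporters gave no call. Slc30a1, which moves zinc out of the cell, was at 0.55, 1.15 and 0.63 FPKM in PF and at 1.97, 0.61 and 1.59 FPKM in AF. In AF with MNA it was at 10.9 FPKM in replicate 1 and at 0.23 and 0.46 FPKM in replicates 2 and 3. AF overlapped PF, with a log2 ratio of 0.84 (limma adjusted p = 0.604), although without AF replicate 2 the ratio was 1.197 and passed the threshold.

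Slc30a10 was between 2.75 and 5.76 FPKM in PF, between 2.43 and 3.95 FPKM in AF and between 2.92 and 3.92 FPKM in AF with MNA. These ranges overlapped. Its log2 ratio was -0.25 for AF against PF, and the difference on the log2(FPKM + 1) scale had a 95% interval from -0.79 to 0.46.

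Ordered per length within PF, the group means were 14.0 FPKM for Mt1, 11.8 for Slc39a14, 10.6 for Mt2, 4.18 for Slc39a4, 3.86 for Slc30a10 and 0.777 for Slc30a1. The first 3 of these did not differ beyond the spread of the metallothioneins, nor did Slc39a4 from Slc30a10. In AF the order was Mt1 at 287 FPKM, Mt2 at 248, Slc39a14 at 22.6, Slc39a4 at 12.9, Slc30a10 at 3.23 and Slc30a1 at 1.39. Mt1 and Mt2 did not differ there beyond their spread, and all 3 values of each lay above every transporter value.

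**Figure D2:**
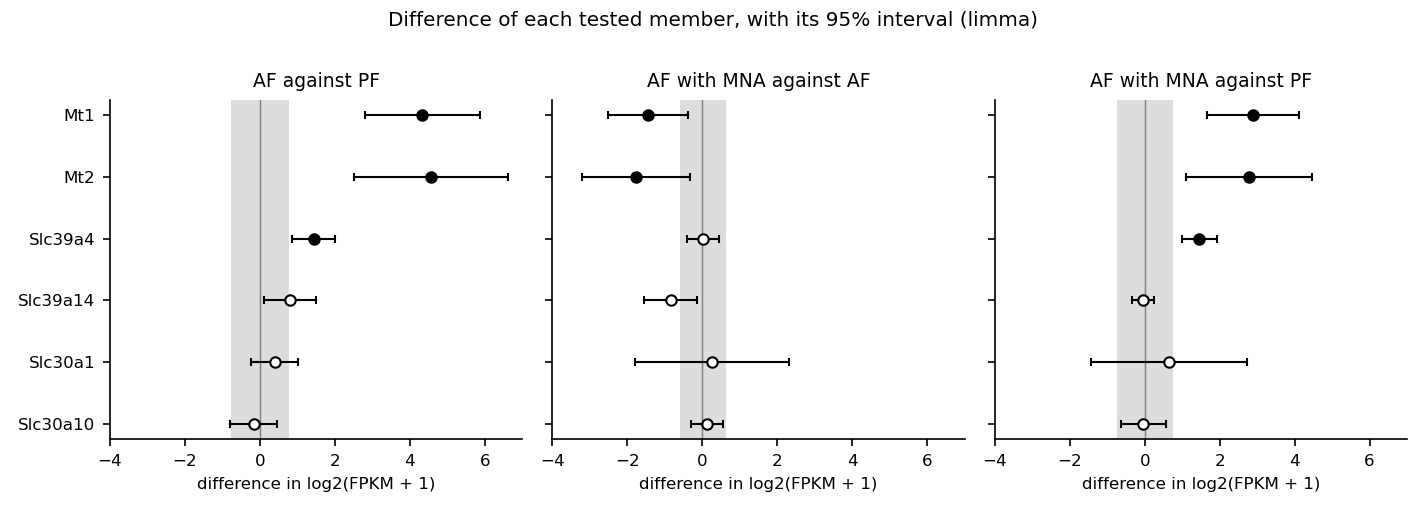
Difference of each tested member between groups in log2(FPKM + 1), with its 95% interval from limma (n = 3 against 3), in the 3 comparisons. Filled points passed the threshold of the methods, open points did not, and the grey band holds the middle 95% of all genes tested. Mt1, Mt2 and Slc39a4 lie to the right of the band against PF, Slc39a14 lies just outside it in AF against PF (0.80) and to its left in AF with MNA against AF (-0.84), and only Mt1 and Mt2 are filled, to the left, in AF with MNA against AF.

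Alcohol feeding with MNA was compared with alcohol feeding alone, a comparison that shares the AF libraries with the one above. Here 2 of the 6 tested members passed the threshold, Mt1 and Mt2, both lower with MNA, against 1.98% of the 12219 genes tested. In limma 0 of 6 had an adjusted p under 0.05 (0.0491% of all genes) and 3 had an unadjusted p under 0.05 (5.21% of all genes). The fit without moderation and with Ballgown's covariate gave 0 members after adjustment. It gave 1 of all 12219 genes, so that 0 says nothing of the members. The groups were separate for 3 members, Mt1, Mt2 and Slc39a14, compared with 10.1% of all genes. The median log2 ratio was -0.48 for the members and 0.01 for all genes. The former is the midpoint of Slc39a14 (-0.97) and Slc39a4 (0.01), with Slc30a1 above both at 1.47. Slc30a1 was at -2.01 without replicate 1 of AF with MNA, so that library alone moves the median.

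Mt1 was downregulated to a mean of 91.2 ± 13.6 FPKM (SD, n = 3), a log2 ratio of -1.65 or 3.15-fold lower (limma adjusted p = 0.940). Mt2 was downregulated to 57.3 ± 14.7 FPKM, a log2 ratio of -2.12 or 4.33-fold lower (limma adjusted p = 0.940). Both sizes leaned on AF replicate 2. Without it the log2 ratios were -0.94 for Mt1, no longer past the threshold, and -1.14 for Mt2. Without replicate 2 of AF with MNA the Mt2 ratio was -1.92 and its unadjusted p, 0.0712, no longer passed.

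Slc39a14 had a log2 ratio of -0.97 with MNA (unadjusted p = 0.0265, limma adjusted p = 0.940), from 22.6 ± 9.62 to 11.5 ± 1.44 FPKM (SD, n = 3 each). It passed the threshold when scaled to the same median (-1.02), without AF replicate 3 (-1.22) and without replicate 2 of AF with MNA (-1.07). It was -0.59 without AF replicate 2, and the unadjusted limma p rose to between 0.0551 and 0.0757 without AF replicate 1 or replicate 1 or 3 of AF with MNA. Slc39a4 had a log2 ratio of 0.01, and the 95% interval of its difference on the log2(FPKM + 1) scale ran from -0.40 to 0.45. For Slc30a10 the log2 ratio was 0.15 and the interval from -0.31 to 0.55.

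Slc30a1 was decided by 1 library. Its log2 ratio against AF was 1.47 with all libraries (limma adjusted p = 0.999) and -2.01 without replicate 1 of AF with MNA, where it passed the threshold in the other direction (unadjusted p = 0.0375). That library and AF replicate 3 stood apart in intronic lncRNA transcripts, whose FPKM summed to 8934 and 9433, against 2477 to 4937 in the other 7. AF replicate 3 had 1.59 FPKM of Slc30a1. The part of intronic signal in the Slc30a1 value was not tested.

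Set against PF, AF with MNA shared its PF libraries with the first comparison. Mt1, Mt2 and Slc39a4 passed the threshold, 3 of 6, all higher than in PF, and 3.88% of the 12281 genes tested did. In limma 0 of 6 had an adjusted p under 0.05 (0.423% of all genes), while 3 had an unadjusted p under 0.05 (14.5% of all genes). The fit without moderation and with Ballgown's covariate gave 0 members after adjustment, and 0 of all 12281 genes, so that 0 says nothing of the members. In that fit, which changed both at once, Slc39a4 alone passed the threshold, since the unadjusted p was 0.0505 for Mt1 and 0.102 for Mt2. The same 3 members were the ones whose groups did not overlap, compared with 21.4% of all genes. The median log2 ratio was 1.97 for the members and -0.02 for all genes. The former is the midpoint of Slc39a4 (1.63) and Slc30a1 (2.31). Slc30a1 was at -1.17 without replicate 1 of AF with MNA, so that library alone moves the median.

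Mt1 was upregulated by a log2 ratio of 2.70 or 6.51-fold (limma adjusted p = 0.108) and Mt2 by 2.43 or 5.40-fold (limma adjusted p = 0.189). Without PF replicate 1 these became 3.67 and 3.95. Slc39a4 was upregulated by 1.63 or 3.10-fold (limma adjusted p = 0.0572), the smallest adjusted p of any member in the 3 comparisons. Slc39a14 had a log2 ratio of -0.04, with a 95% interval of its difference on the log2(FPKM + 1) scale from -0.33 to 0.25. Slc30a10 had a log2 ratio of -0.11 and Slc30a1 one of 2.31, which was -1.17 without replicate 1 of AF with MNA.

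The row named Slc39a5 held 1 single-exon assembled transcript of 814 bp on the plus strand, opposite to the gene. It covered 105 bases of Slc39a5 exons at the 3′ end of the gene and ran 709 bp past it. Its level was 6.86, 8.81 and 5.08 FPKM in PF, 7.11, 6.09 and 6.65 FPKM in AF and 6.99, 6.19 and 5.31 FPKM in AF with MNA, and the groups overlapped. With assembled rows tested too, an alternative chosen after seeing the data, its log2 ratio was -0.06 for AF against PF, -0.10 for AF with MNA against AF and -0.17 for AF with MNA against PF.

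The 4 known Slc39a5 transcripts were merged with 8 transcripts of the neighbouring single-stranded DNA binding gene Nabp2 in a row named Nabp2. That row was between 2.87 and 3.22 FPKM in PF, between 2.49 and 3.95 FPKM in AF and between 2.77 and 3.85 FPKM in AF with MNA. Its log2 ratio was 0.11 for AF against PF (limma adjusted p = 0.895), and the 2 genes' parts in it cannot be told apart. No value for ZIP5 mRNA alone was therefore obtained.

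**Figure D3:**
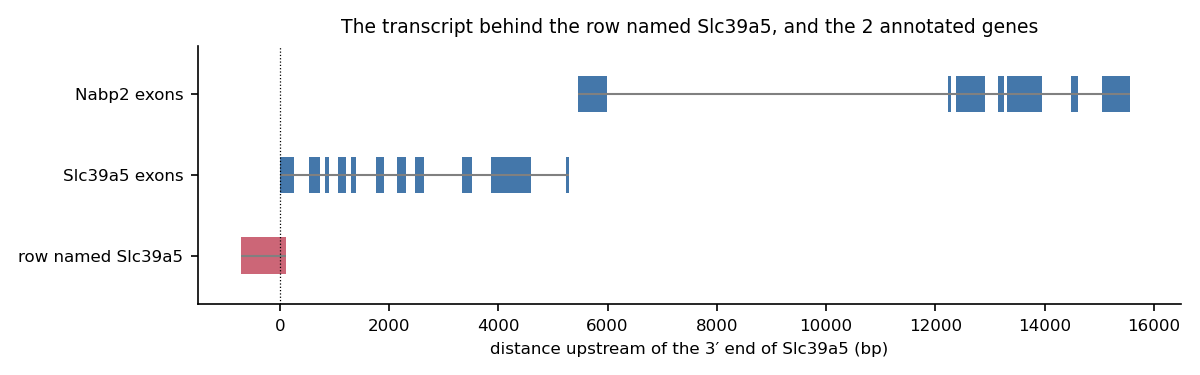
Map of the Slc39a5 locus, with the distance in bp upstream of the 3′ end of Slc39a5 on the x axis. Blue boxes are annotated exons of Nabp2 and Slc39a5, both on the minus strand, and the red box is the assembled plus-strand transcript behind the row named Slc39a5, which covers 105 bases of Slc39a5 exons.

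Other transcripts were listed at or near the member genes. A known lncRNA, Gm45774, a single exon of 2665 bp on the minus strand, overlaps Mt2 from before its start and ends short of its 3′ end. It was at 0.941, 0 and 0.193 FPKM in PF, at 3.69, 5.72 and 0 FPKM in AF and at 1.64, 0.431 and 1.96 FPKM in AF with MNA. AF replicates 1 and 2 were the highest and AF replicate 3 was listed at 0, so the groups overlapped. Gm17201, a known lncRNA 368 bp from Slc39a5 on the same strand, was between 2.48 and 4.63 FPKM over the 9 libraries. The lncRNAs 1700034H15Rik, which overlaps Slc30a1, and Gm2061, which overlaps Slc30a10, both on the opposite strand, had known transcripts at 0.403 FPKM or below in every library. The libraries were made with the dUTP protocol, which marks strand, and how strand was set in the counting is not given in the sources used here. The extra Mt1 row, an assembled transcript, was at 1.41 FPKM or below in every library. The circRNA table listed 1 circRNA of a member, from 4 exons of Slc39a14, with 1 junction read, in replicate 3 of AF with MNA.

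The rest of both transporter families gave no call in the 3 comparisons at the methods' threshold. Of 8 other ZnT exporters, 5 were tested and 0 passed in each comparison, with 0, 1 and 1 at an unadjusted limma p under 0.05 (11.7%, 5.21% and 14.5% of all genes). The most abundant, Slc30a5, which loads zinc into the secretory pathway, was between 9.48 and 13.6 FPKM in PF and between 6.52 and 12.2 FPKM in AF. Of 11 other ZIP importers, 10 were tested between AF and PF and 9 in each of the others, with 0 past the threshold and 0 at an unadjusted limma p under 0.05. The most abundant ZIP, Slc39a1, was between 25.9 and 34.7 FPKM in PF, 23.3 and 37.0 FPKM in AF and 27.4 and 29.8 FPKM in AF with MNA. It was thus above Slc39a4 in every library. Median log2 ratios of AF to PF were -0.14 for the ZnT and 0.15 for the ZIP list, beside -0.03 for all genes. No row with a known transcript was found for the brain and epithelial metallothioneins Mt3 and Mt4.

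Mtf1, which encodes MTF-1, was at 3.13, 3.08 and 3.11 FPKM in PF, at 2.30, 2.31 and 2.93 FPKM in AF and at 3.11, 2.84 and 2.80 FPKM in AF with MNA. It was lower in every AF library than in any PF library, with a log2 ratio of -0.31 that did not pass (unadjusted p = 0.101, limma adjusted p = 0.523). Such a separation of AF from PF held for 18.3% of all genes. In the list of 7 regulators of metallothionein transcription, 6 were tested and 0 passed in any comparison, also at an unadjusted limma p under 0.05. Its most abundant gene was Stat3, the factor of interleukin-6 signalling, between 5.06 and 12.8 FPKM over the 9 libraries.

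Genes that answer to the other known inducers of metallothionein were counted in the same fits. Of 7 glucocorticoid-responsive genes 2 passed between AF and PF, beside 4.29% of all genes. Both were upregulated: Sgk1, a kinase, with a log2 ratio of 1.13 (limma adjusted p = 0.252), and Tat, a tyrosine-degrading enzyme, with 1.24 (limma adjusted p = 0.393). All 7 had a log2 ratio above 0, with a median of 0.97, beside -0.03 for all genes. With MNA against AF, 0 passed and 0 had an unadjusted limma p under 0.05 (1.98% and 5.21% of all genes). There all 7 ratios were below 0 with a median of -0.57, beside 0.01 for all genes. The share of all genes above or below 0 was not counted. The summed level of the list was 138 to 277 FPKM in PF, 242 to 626 FPKM in AF and 152 to 349 FPKM in AF with MNA. The part of glucocorticoid signals in the metallothionein difference was not tested.

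Of 6 tested NRF2 targets, which answer to oxidants and electrophiles, 3 passed in AF against PF, all upregulated, beside 4.29% of all genes. These were Nqo1, a quinone reductase (log2 ratio 1.84, limma adjusted p = 0.190), Srxn1, a sulfiredoxin (1.303, 0.188), and Gclc, of glutathione synthesis (1.03, 0.295). Gclm, its partner subunit, had a log2 ratio of -0.62 (unadjusted p = 0.0886) and, in AF with MNA against PF, of -0.91 with separate groups (limma adjusted p = 0.0979), on the side opposite to the rest. Hmox1, the haem-degrading enzyme, was at 15.8, 160 and 10.5 FPKM in AF, against 4.80 to 6.51 FPKM in PF. Replicate 2, the AF library with the most Mt1 and Mt2, thus stood out for Hmox1 as well. In AF with MNA, Nqo1, Gclc and Hmox1 passed against PF (1.63, 1.06 and 1.38), beside 3.88% of all genes. There all 6, Gclm on the other side, had an unadjusted limma p under 0.05 (14.5% of all genes), as had 3 in AF against PF (11.7%). The groups were separate for 6 and 4 of them in these comparisons (21.4% and 18.3% of all genes). Against AF, 0 of the 6 passed, with 0 at an unadjusted limma p under 0.05 (5.21% of all genes).

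Hpx, Saa1 and Hp, acute phase genes, were highest in PF replicate 1 and AF replicate 2. Hpx, the haem carrier and the most abundant of the list, was at 2133 FPKM in PF replicate 1 and 2235 FPKM in AF replicate 2, and between 596 and 1322 FPKM in the other 7. Saa1 and Hp, named after their values were seen, were likewise at 184 and 487 FPKM in PF replicate 1 and at 214 and 448 FPKM in AF replicate 2. In the other 4 PF and AF libraries Saa1 was between 1.64 and 5.43 FPKM and Hp between 42.8 and 99.02 FPKM. In AF with MNA, Saa1 was at 42.0, 42.8 and 3.43 FPKM and Hp at 53.9, 87.5 and 289 FPKM. PF replicate 1 and AF replicate 2 were also the libraries with the most Mt1 and Mt2 in their groups. Of the 11 tested genes of the list, 1 passed between AF and PF, beside 4.29% of all genes. This was Apcs (serum amyloid P), listed at 0.05, 0.48 and 0 FPKM in AF and at 43.1 to 104 FPKM in PF (limma adjusted p = 0.00397). In the other comparisons 0 passed, with 0 at an unadjusted limma p under 0.05. The part of acute phase signals in the member values was not tested.

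With PF replicate 1 and AF replicate 2 both left out, an alternative chosen after seeing the data, the log2 ratio of AF to PF was 4.61 for Mt1 (limma adjusted p = 0.0287), 5.09 for Mt2 (0.0532), 2.09 for Slc39a4 (0.0620) and 0.61 for Slc39a14 (0.568). In that fit 3 of the 6 members passed the threshold, as did 561 of all 12361 genes, and 24 of all genes had a limma adjusted p under 0.05. These libraries were picked with their values in view. PF replicate 1 was the highest PF library for Mt1, Mt2 and Slc39a4 and AF replicate 2 the lowest AF library for Slc39a4, so the choice itself raised the Slc39a4 ratio and moved those of Mt1 and Mt2. AF replicate 2 was also the highest AF library for Mt1 and Mt2, so the choice narrowed the spread of both groups. The standard error fell from 0.641 to 0.186 for Mt1 and from 0.859 to 0.346 for Mt2. The smaller p-values of this fit follow in part from that choice and are no support.

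**Figure D4:**
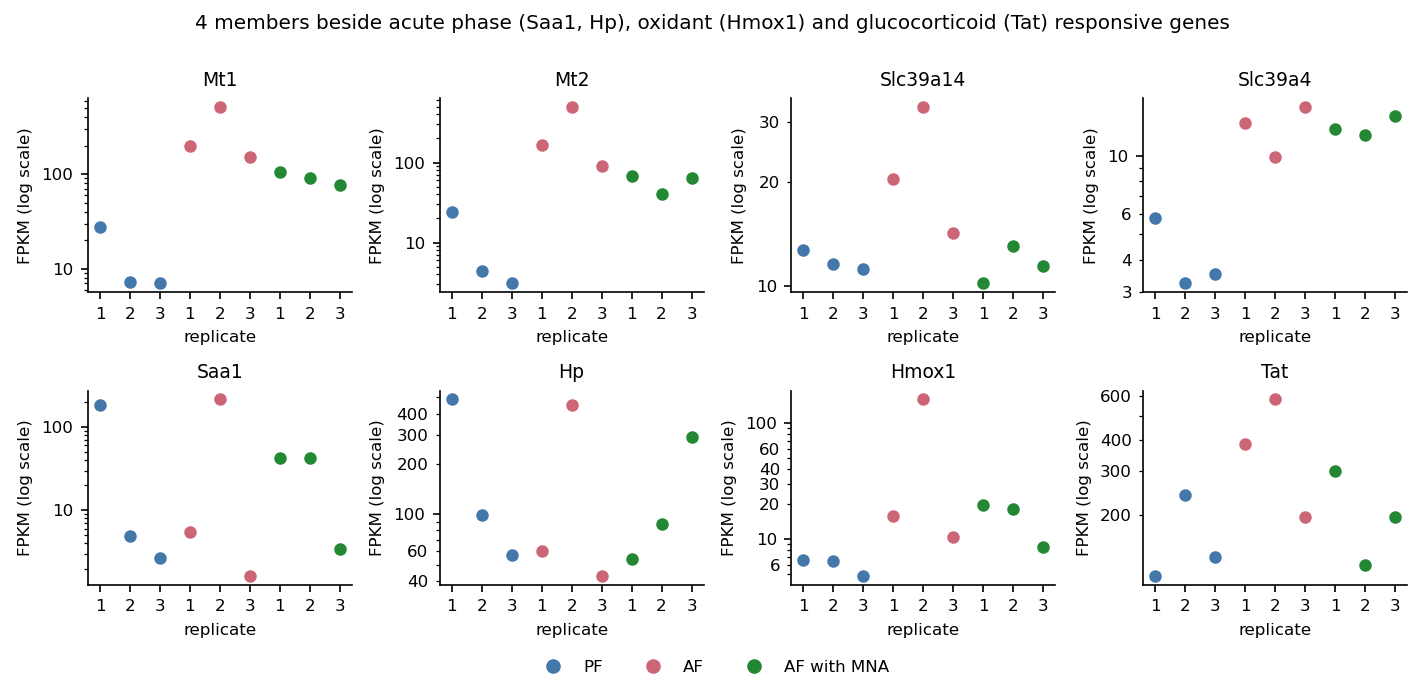
FPKM on log axes of 4 members (top) and of Saa1, Hp, Hmox1 and Tat (bottom) in each library, with PF in blue, AF in red and AF with MNA in green and the replicate number on the x axis. PF replicate 1 and AF replicate 2 are high for Saa1 and Hp and are the highest of their groups for Mt1 and Mt2, while Slc39a4 separates PF from both alcohol-fed groups.

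Proteins that use the metals were described from lists of zinc enzymes, copper handling genes and manganese enzymes. Of 13 zinc enzymes 1 passed between AF and PF, beside 4.29% of all genes. This was the alcohol dehydrogenase Adh4, downregulated by a log2 ratio of -1.57 (limma adjusted p = 0.127), and it was also lower in AF with MNA against PF (-1.41). The most abundant, Adh1, the main ethanol-oxidising enzyme, was between 294 and 395 FPKM in PF and between 380 and 513 FPKM in AF. Of 9 tested copper genes, Ccs, the chaperone that loads copper into superoxide dismutase, was downregulated in AF (-1.08, limma adjusted p = 0.114), and Sco1, of cytochrome oxidase assembly, was lower in AF with MNA than in PF (-1.34, limma adjusted p = 0.273). Of the 4 manganese enzymes 0 passed in any comparison, with 2, 1 and 1 at an unadjusted limma p under 0.05. Over all genes the shares at that p were 11.7%, 5.21% and 14.5%.

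The labelled tissue was checked by its markers. Alb, the hepatocyte marker, was between 10880 and 17390 FPKM, and of 5 tested hepatocyte markers 0 passed in any comparison, also at an unadjusted limma p under 0.05. No tested marker of Kupffer cells, sinusoidal endothelium, stellate cells or cholangiocytes passed the threshold. In AF against PF the numbers with an unadjusted limma p under 0.05 were 0, 1, 3 and 1, beside 11.7% of all genes. Neutrophil markers were all under the level for testing, with S100a8 at 0.92 FPKM or below. Of 4 tested erythroid markers, Alas2, of haem synthesis, was lower in AF than in PF (log2 ratio -1.86, limma adjusted p = 0.108) and in AF with MNA than in PF (-1.17). The 3 globin genes had log2 ratios of AF to PF of 0.38 (Hbb-bt), 0.43 (Hbb-bs) and 0.20 (Hba-a2) and did not pass.

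Summed levels of the sinusoidal endothelium list were 18.0 to 22.1 FPKM in PF, 22.7 to 33.5 FPKM in AF and 27.4 to 34.0 FPKM in AF with MNA, so both alcohol-fed groups were above PF, as for Mt1, Mt2 and Slc39a4. Of its 5 markers 3 had an unadjusted limma p under 0.05 in AF with MNA against PF, beside 14.5% of all genes. Cholangiocyte sums were 3.27 to 4.31 FPKM in PF, 4.86 to 9.12 FPKM in AF and 3.34 to 6.33 FPKM in AF with MNA, AF again above PF. Most of this sum was Spp1, at 2.09 to 2.97 FPKM in PF and 3.39 to 6.66 FPKM in AF. Krt19, Krt7 and Epcam of the same list were at 0.64 FPKM or below in every library and were not tested. Kupffer cell sums were 55.9 to 68.0 FPKM in PF, 43.7 to 79.7 FPKM in AF and 55.2 to 71.6 FPKM in AF with MNA, and stellate cell sums were 28.0 to 29.1, 25.2 to 35.2 and 26.6 to 38.3 FPKM, all overlapping. Most of the stellate sum was Dcn. The lower Des (log2 ratio of AF to PF 0.93, limma adjusted p = 0.288) and Col1a1 (0.87, limma adjusted p = 0.414), named after their values were seen, were higher in every AF than in every PF library, and against AF their ratios with MNA were -0.56 and -0.66. AF and PF did not overlap for 18.3% of all genes. Of the rest of the list, Reln had a ratio of AF to PF of -0.56 (unadjusted p = 0.0484), Dcn one of 0.10 and Lrat one of 0.19, so the 3 stellate markers with an unadjusted p under 0.05 were 2 higher and 1 lower. The part of any shift in cell types in the member values was not tested.

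The genes whose pattern was most like that of the members are given by Pearson's r of log2(FPKM + 1) over the 9 libraries, among 9985 genes of at least 1 FPKM, as a description, since the libraries fall into 3 groups. For the mean of Mt1 and Mt2 they were Lbp, the acute phase lipopolysaccharide-binding protein (r = 0.987), Slc48a1, a haem transporter (0.962), Ctsl, a lysosomal protease (0.948), Selenow, a selenoprotein (0.943), and Heg1 (0.939). Lbp was at 13.6 to 25.5 FPKM in PF, 31.4 to 57.0 FPKM in AF and 30.4 to 35.4 FPKM in AF with MNA, with PF replicate 1 and AF replicate 2 the highest of their groups.

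For Slc39a4 they were the tetraspanin Cd81 (r = 0.981), the transporter Slc22a18 (0.973) and the lysosomal protease Ctsz (0.969), whose levels, like those of Slc39a4, were separate between PF and both alcohol-fed groups. For Slc39a14 they were 1700017B05Rik (0.942), the histone gene Hist1h4n (0.939) and Megf9 (0.937). Hist1h4n was listed at 0 in all libraries other than AF replicates 1 and 2. For Slc30a10 they were Klhl5 (0.935), the xenobiotic receptor gene Nr1i2 (0.929) and Clcc1 (0.923). For Slc30a1 they were Brcc3 (0.926), Atp6v0d2 (0.919) and Gm42427 (0.910), the last of which had a value, 144 FPKM, in replicate 1 of AF with MNA and was listed at 0 in the other 8 libraries.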

How the data were processed

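Livers of 3 groups of mice (n = 3 libraries each) were profiled by ribosomal RNA-depleted, dUTP-marked paired-end RNA-seq. The authors assembled transcripts and deposited FPKM values per gene and per lncRNA transcript, made with StringTie, and a circRNA table of junction read counts. The submitters' processing notes name cutadapt 1.9, FastQC, HISAT2, StringTie 1.3.4, edgeR and TopHat. The genome build is not given in the sources used here. Of 7879 known lncRNA transcripts 7841 were found in GENCODE M21 (GRCm38), 7708 with the same start and end, so positions are those of GRCm38. No fragment counts were used. In the deposited lncRNA table the authors also gave read coverage per base, as a signal, and coverage per FPKM, constant within a library, was 5.84 to 8.30, so depth differed by less than 1.5 times.

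From the deposited FPKM values, rows with a name and a known transcript (26350 of 52151) whose FPKM averaged 0.5 or more in the 6 libraries of a comparison were fitted as log2(FPKM + 1) with limma 3.58.1 (lmFit, eBayes with trend, R 4.3.3), with Benjamini-Hochberg adjustment over all genes. The fold change was the ratio of group mean FPKMs, and the threshold (unadjusted p under 0.05, log2 ratio beyond 1 or -1) was that of the methods. The fit was tested on simulated data. Of the used rows, 437 merged transcripts of 2 or more coding genes. Alternatives were the pseudocount (0.1), the filter (none, 2 FPKM), median scaling, no trend, all 9 libraries, a replicate block, limma's coefficient as fold change, a fit without moderation and with Ballgown's covariate, merged genes left out, each library left out and, added after seeing the data, all rows and PF replicate 1 and AF replicate 2 both left out.

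The members, lists and tests were chosen with earlier results of these data known. Named genes were the members, list genes past the threshold, Mtf1, the most abundant gene of each list and genes of like pattern (5 for Mt1 and Mt2, 3 for each other member). Outside this rule, Saa1, Hp, Gclm, Des, Col1a1, Reln, Lrat, Krt19, Krt7, Epcam, Vil1, Cpa1, Hbb-bt and Hba-a2 were named after their values were seen. Motifs were counted in RefSeq promoter windows of 250 bases.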

Additional observations from a re-analysis of the deposited data

How the results depend on the processing

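With 3 libraries in a group, 1 library can decide a value, and PF replicate 1, AF replicate 2 and replicate 1 of AF with MNA did so for members. Of 360 alternative values of the log2 ratio of group means for members and Nabp2, 185 equal the main value by construction, since the setting moved neither values nor libraries, and say nothing of stability of direction. Of the other 175, 154 kept their direction and side of the threshold. Over all 360, 6 newly passed it in the same direction, 4 no longer passed it and 13 changed sign, 1 of which, Slc30a1 without replicate 1 of AF with MNA, passed it on the other side. The cause was not tested.

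Without 1 library, members past the threshold numbered 3 to 4 between AF and PF, 1 to 3 between AF with MNA and AF and 3 to 3 between AF with MNA and PF, and those with an adjusted limma p under 0.05 numbered 0 to 0, 0 to 0 and 0 to 3, the 3 without PF replicate 1. In that fit 34 of all 12270 genes had an adjusted p under 0.05. With all 9 libraries in the fit, 3 members between AF and PF and 1 between AF with MNA and PF had an adjusted p under 0.05, as had 1 in the latter with the filter at 2 FPKM and 1 in the former without both PF replicate 1 and AF replicate 2. Over all genes, 86 of 12273 and 48 of 12281 had one with all 9 libraries. With the filter at 2 FPKM 48 of 7397 had one, and without both libraries 24 of 12361. The fit without moderation and with Ballgown's covariate left 1 member past the threshold between AF with MNA and PF, and 244 of all 12281 genes.

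The 13 sign changes of the ratio were in ratios that had not passed, each on leaving out 1 library. The fitted difference in log2 values changed sign 16 times, 2 of them with all libraries: for Slc30a1 in AF with MNA against AF (0.26 to -0.10 with the pseudocount at 0.1) and for Slc30a10 in AF with MNA against PF (-0.04 to 0.25 without moderation and with Ballgown's covariate). Over the libraries left out, the log2 ratio of AF to PF ran from -0.45 to 0.15 for Slc30a10 (above 0 without PF replicate 3) and from -0.032 to 0.28 for Nabp2 (below 0 without AF replicate 3). That of AF with MNA to AF ran from -2.01 to 2.02 for Slc30a1 (below 0 without replicate 1 of AF with MNA), from -0.021 to 0.32 for Slc30a10 (below 0 without AF replicate 2), from -0.15 to 0.15 for Slc39a4 (below 0 without AF replicate 2 or replicate 3 of AF with MNA) and from -0.15 to 0.16 for Nabp2. That of AF with MNA to PF ran from -1.17 to 2.86 for Slc30a1 (below 0 without replicate 1 of AF with MNA), from -0.30 to 0.30 for Slc30a10 and from -0.14 to 0.045 for Slc39a14.

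With a replicate block, 3, 2 and 3 members passed the threshold in the 3 comparisons and 0 had an adjusted p under 0.05, and over all genes 18, 1 and 0 did, against 40, 6 and 52 without it. Same-numbered libraries correlated by -0.08 to 0.06 in their deviations, so no pairing by number was visible in them. Deviations from means of 3 libraries cannot exclude that same-numbered samples were paired in the experiment. Over all alternatives, genes past the threshold numbered 249 to 1183, 81 to 675 and 228 to 1104, against 527, 242 and 477. The largest counts were without a filter on low values.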
